A study of Mus musculus with 24 samples.

Results

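The comparison described here set diabetic mouse hearts labelled as carrying an induced cardiomyocyte GLUT4 transgene against diabetic hearts without it. Its members were the 12 left ventricles, of 24 in the series, whose titles pair streptozotocin (STZ) with either genotype: 6 from mice labelled mG4H STZ and 6 from mice labelled CON STZ. mG4H mice carried an inducible GLUT4 transgene restricted to cardiomyocytes, and CON is the only description the labels give of the other genotype. Both groups were male and were injected after a fast with 55 mg/kg STZ on 5 days in a row (STZ kills the insulin-producing beta cells). The transgene was induced 2 weeks after STZ and for 2 weeks before harvest, which fell between 6 and 7 in the morning. The other 12 ventricles came from 6 mG4H VEH and 6 CON VEH mice, which were given citrate buffer (VEH) in place of STZ. The promoter, the inducer, whether CON mice received the inducer, the strain and the age are not given in the sources used here. Each mouse gave 1 array. The labels state that siblings were spread over the groups but not which mice they were, so siblings were treated as independent.

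GLUT4, encoded by Slc2a4, is the insulin-responsive glucose transporter of heart, skeletal muscle and fat, and insulin moves it from vesicles inside the cell to the surface. When insulin is lacking, the heart takes up less glucose and burns mainly fatty acids. Fatty acids activate the nuclear receptor PPAR alpha, which turns on Pdk4 (a kinase that shuts off pyruvate oxidation) and genes of fatty acid handling, whereas glucose metabolites act through the ChREBP and MondoA factors on genes such as Txnip and Arrdc4. The question posed by the design is what the induced transgene does to the transcripts of a heart that is already diabetic. Glucose uptake is not among the values used here.

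Signals were measured on 1-colour Agilent arrays of 62976 spots. Every level below is a log2 signal relative to the 75th percentile of its own array, so 0 is that percentile, and every difference is mG4H minus CON on the log2 scale with its standard error (SE). On the 12 STZ arrays the 75th percentile lay between 369.8 and 583.2 intensity units, and between 58.5% and 76.3% of gene spots were well above background (61.2% to 76.3% in mG4H STZ, 58.5% to 76.2% in CON STZ). The STZ arrays lay on 3 slides that each held 2 mice of each STZ group. The VEH genotypes were unevenly spread over slides 2 and 3. CON VEH 3 and mG4H VEH 3 lay on slide 4, scanned on day 2. The first principal component of the 12 STZ arrays carried 45.2% of the variance. Of this, 94.2% lay between slides and 0.119% between genotypes, and slide was a term of the fit. All 14 cardiomyocyte markers checked (among them Myh6, Tnnt2 and Ryr2) were measured, with a mean level over the list of 7.63 to 7.99 in mG4H STZ hearts and 7.55 to 7.93 in CON STZ hearts. In whole ventricle, fewer cells of a type and less RNA per cell cannot be told apart.

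The probes behind the clearest differences are printed here from the array files, 5′ to 3′, with mm9 coordinates. The probe of Ttc25, a tetratricopeptide repeat protein of motile cilia, covers chr11:100415182-100415241 on the plus strand and begins at base 1017 of its transcript.
Ttc25: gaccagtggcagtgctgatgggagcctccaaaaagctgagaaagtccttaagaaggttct
A second set comes from an intergenic transcript region on the plus strand of chromosome 6 (chr6:50339188-50409363), annotated on the array as a lincRNA. Its 3 measured probes are shown together because only the first differed between genotypes. They cover chr6:50405629-50405688, chr6:50400013-50400072 and chr6:50406155-50406214 in that order.
chr6 lincRNA probe A_30_P01018118: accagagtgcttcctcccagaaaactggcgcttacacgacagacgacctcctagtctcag
chr6 lincRNA probe A_30_P01018958: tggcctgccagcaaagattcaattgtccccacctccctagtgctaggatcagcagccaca
chr6 lincRNA probe A_30_P01026126: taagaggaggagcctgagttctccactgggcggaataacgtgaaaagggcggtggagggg

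Slc2a4 itself was measured by 1 probe, at chr11:69756073-69756132 and base 2477 of its transcript. Its level was 5.66 at the lowest, 6.37 at the median and 6.94 at the highest in mG4H STZ hearts, against 5.60, 6.25 and 6.42 in CON STZ hearts. The groups overlapped. The difference was 0.20 (SE 0.15, limma adjusted p = 0.997), and the same probe gave -0.23 between mG4H VEH and CON VEH hearts. The difference between these 2 effects was 0.43 (unadjusted p = 0.0592). The labels do not say whether the transgene's transcript contains the sequence of this probe, so its values are no check of the genotype labels.

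Of 28235 genes tested, 4 passed the limma test between mG4H STZ and CON STZ hearts at an adjusted p under 0.05 (0.0142% of genes). Of these, 2 were higher (0.00708%) and 2 lower (0.00708%). Among the 12 fits that each left out 1 STZ heart, all 4 passed every time. The count was 18 without CON STZ 3, 9 without mG4H STZ 3, 7 without mG4H STZ 6, and 4 to 6 in the other fits. With only the 12 STZ arrays fitted, Ttc25 alone passed, and ENSMUST00000054384 was also lost without the slide term or with blood glucose as a covariate. At an unadjusted p under 0.05 there were 1445 genes (5.12%), 852 higher (3.02%) and 593 lower (2.1%). The median difference over all genes was 0.015, with 54.1% of genes above 0. Beyond Ttc25, the passing genes carry no current symbol and fall outside the rule for named genes, so they are given because they passed.

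Ttc25 rose. Its level was -2.80, -2.40 and -1.73 (lowest, median, highest) in mG4H STZ hearts, against -4.43, -4.15 and -3.34 in CON STZ hearts, with no overlap. The difference was 1.68 (SE 0.21, limma adjusted p = 0.00111), or 3.21-fold higher, and it was 1.74, 1.82 and 1.48 within slides 1, 2 and 3. With normexp background correction, which changes dim probes most, it was 0.71 (limma adjusted p = 0.0249). The same genotype difference in buffer-treated hearts was 2.35 (SE 0.21, limma adjusted p = 1.9e-05). A second Ttc25 probe, at chr11:100433658-100433717 and base 2595, gave 1.23 (SE 0.27), although it was well above background in 5 of 6 mG4H STZ hearts and in only 1 of 6 CON STZ hearts. The neighbouring genes Cnp (0.02) and Dnajc7 (0.12) of chromosome 11 did not share the difference. For Acly, a dim probe that did not stand for the gene in the fit gave -0.01. It stood at -4.56 in mG4H STZ and -4.55 in CON STZ hearts, well above background in 5 of 6 hearts of each group. A brighter Acly probe is not described here.

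The chromosome 6 probe A_30_P01018118 also rose. It stood at -1.77, -1.47 and -1.03 in mG4H STZ hearts, against -3.43, -2.66 and -2.21 in CON STZ hearts. The groups did not overlap, and the difference of 1.31 (SE 0.16, limma adjusted p = 0.00111) was 1.65, 1.18 and 1.12 within the slides. With normexp it was 0.79 (limma adjusted p = 0.0152), and as the mean of the region's probes 0.46 (limma adjusted p = 0.155). In VEH hearts it was 1.32 (limma adjusted p = 0.000516). The region had 6 plus-strand probes on the array and 3 passed the filter on dim probes. The other 2 printed above gave 0.07 (SE 0.10) and -0.01 (SE 0.17), and of 12 probes on either strand of the interval only this one had an unadjusted p under 0.05. The difference was thus seen at 1 of the 3 measured plus-strand probes.

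LOC640020, described on the array as similar to an intestinal mucin and given no genome position there, fell. Its level was -3.96, -3.56 and -3.03 in mG4H STZ hearts, against -2.78, -2.39 and -2.19 in CON STZ hearts, again without overlap. The difference was -1.11 (SE 0.13, limma adjusted p = 0.00111), or 2.16-fold lower. With normexp it was -0.48 (limma adjusted p = 0.0101). It was -1.16 in VEH hearts (limma adjusted p = 0.000169). ENSMUST00000054384, described as a transcript of Trim56 at chr5:137581520-137581579 on the minus strand, fell too. It stood at 1.96, 2.63 and 3.05 in mG4H STZ hearts, against 3.05, 3.36 and 3.59 in CON STZ hearts. The difference was -0.75 (SE 0.10, limma adjusted p = 0.00198) with values of -0.52, -0.83 and -0.91 within slides, and in VEH hearts it was -0.73 (limma adjusted p = 0.00143).

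**Figure D1:**
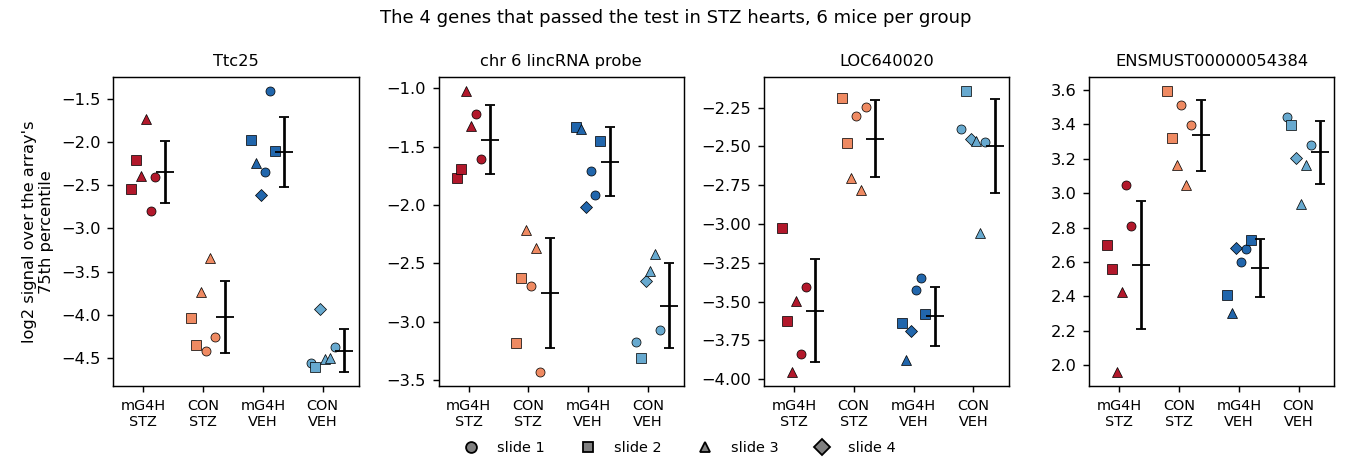
Log2 signal over the array's 75th percentile for the 4 genes that passed the test in STZ hearts, with 1 point per mouse, marker shape for slide, and a bar for the mean and SD of 6 mice. In each panel every mG4H STZ heart lies on the same side of every CON STZ heart, and the VEH groups show the same order.

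All 4 of these genes also passed in VEH hearts, with the same sign. Both contrasts came from the same fit and share each gene's estimate of spread and the slide terms, so they are not fully independent. Of all genes, 61 (0.216%) had STZ groups that did not overlap, 46 with mG4H higher (0.163%) and 15 with mG4H lower (0.0531%). The VEH contrast uses other mice and other arrays: it had 30 genes past the threshold (0.106%), 12 higher (0.0425%) and 18 lower (0.0638%), and 1176 at an unadjusted p under 0.05 (4.17%). Of the 30, 26 had the same sign in STZ hearts, 13 had the same sign with an unadjusted p under 0.05 there, and 4 passed. The 12 genes higher in mG4H VEH hearts had a median difference of 0.46 in STZ hearts, and the 18 lower ones a median of -0.10.

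Trim56 encodes an E3 ubiquitin ligase of antiviral signalling, and its own symbol and the nearby Ap1s1 lay on the same side. At Trim56 the levels were -0.02, 0.42 and 0.87 in mG4H STZ hearts, against 0.89, 1.06 and 1.35 in CON STZ hearts, without overlap, for a difference of -0.66 that did not pass (SE 0.14, limma adjusted p = 0.166). Ap1s1, a subunit of the AP-1 clathrin adaptor, had levels of 3.49, 3.63 and 3.90 in mG4H STZ hearts, against 3.90, 4.11 and 4.29 in CON STZ hearts, for a difference of -0.44 (limma adjusted p = 0.15).

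Of the 9 probes described here from Fis1 to Trim56, 4 had an unadjusted p under 0.05 in STZ hearts and the same 4 in VEH hearts. They were the 2 probes of Ap1s1 and those of ENSMUST00000054384 and Trim56. On the far side of Ap1s1, Fis1, Cldn15, Znhit1 and Plod3 ranged from -0.27 to 0.05.

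**Figure D2:**
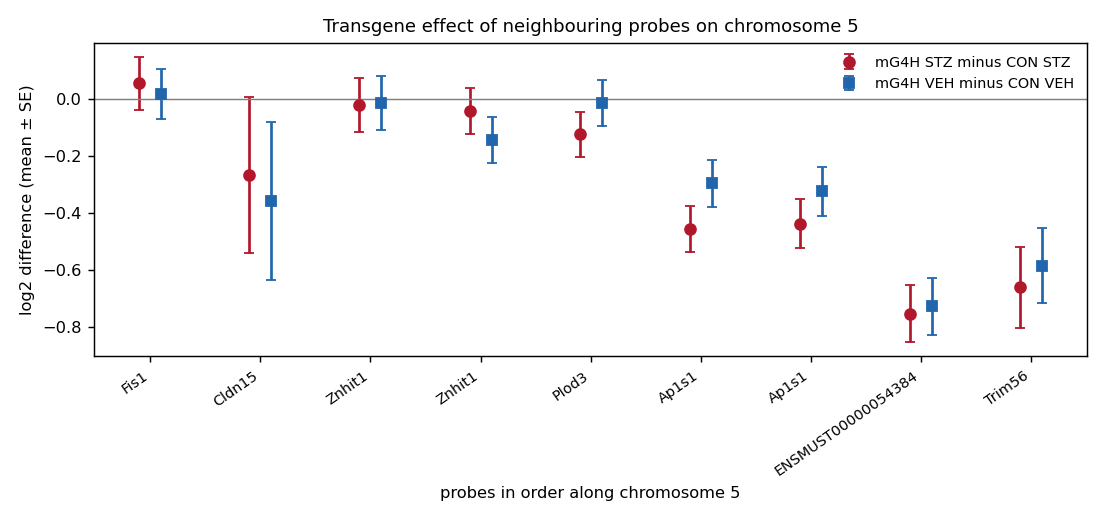
Log2 difference (mean ± SE) of 9 probes from Fis1 to Trim56 on chromosome 5, in chromosome order, for mG4H STZ minus CON STZ (circles) and mG4H VEH minus CON VEH (squares). The probes of Ap1s1, ENSMUST00000054384 and Trim56 lie below 0 in both treatments, from -0.44 to -0.75 in STZ hearts.

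Other genes came near the threshold without passing it. Lgi3, a secreted leucine-rich repeat protein, stood at -2.96, -2.47 and -1.93 in mG4H STZ hearts and at -3.87, -3.46 and -2.74 in CON STZ hearts. The groups overlapped slightly. The difference was 0.92 (SE 0.16, limma adjusted p = 0.0646, and 0.42 with normexp), against 1.32 in VEH hearts, where it passed (limma adjusted p = 0.000519). AI132487, a mitochondrial carrier gene now named Slc25a47, gave 0.66 in both treatments (limma adjusted p = 0.0646 in STZ hearts and 0.0241 in VEH hearts).

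Il15, a cytokine made by muscle, was among the genes of smallest p. Its levels were 0.74, 1.37 and 1.99 in mG4H STZ hearts, against 0.35, 0.68 and 1.10 in CON STZ hearts, with overlap. The difference of 0.64 (SE 0.13, limma adjusted p = 0.165) compared with -0.11 in VEH hearts. CON STZ hearts lay below the VEH hearts, which ran from 1.35 to 1.76, and mG4H STZ hearts lay on both sides of them. Gm6309, a predicted gene, gave 0.89 in STZ hearts (0.36 with normexp) and 0.91 in VEH hearts, and 1110008J03Rik gave 0.38 and 0.07.

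Several of the remaining genes of smallest p on the higher side were predicted genes described on the array as GAPDH-like (Gm2546, Gm5652, Gm9568, Gm8825 and Gm8927) or uracil-DNA-glycosylase-like (Gm5210), with differences of 0.40 to 0.47 (limma adjusted p = 0.0507 for Gm2546, the smallest of them). Gapdh encodes an enzyme of glycolysis. Over all 74 kept probes described as GAPDH-like or as uracil-DNA-glycosylase-like, a set chosen after its values were seen, 70 were above 0 in STZ hearts (median 0.31) and 68 in VEH hearts (median 0.27). In each treatment 61 of them had an unadjusted p under 0.05. Over all 39766 kept probes, 54.9% were above 0 in STZ hearts and 51.8% in VEH hearts, and 4.76% and 3.90% had an unadjusted p under 0.05.

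Of Gapdh itself there were 7 probes, also looked up after values were seen. In order along the transcript, from base 156 to base 1175, their differences in STZ hearts were 0.40, 0.40, 0.29, 0.40, 0.27, 0.16 and 0.08. The last of these is the brightest and stood for Gapdh in the fit, with levels of 8.52, 8.60 and 8.66 in mG4H STZ hearts, against 8.34, 8.53 and 8.74 in CON STZ hearts. It gave an adjusted p of 0.997 (limma), while 5 of the 7 probes had an unadjusted p under 0.05. A pair of probes, picked for its long shared run, shows the sharing of sequence, with 24 identical bases in capitals. The first lies in Gapdh at chr6:125113312-125113371 on the minus strand, and the second in LOC677637, described as uracil-DNA-glycosylase-like, at chr1:188784519-188784578 on the plus strand.
Gapdh: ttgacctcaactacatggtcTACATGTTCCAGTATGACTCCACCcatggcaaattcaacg
LOC677637: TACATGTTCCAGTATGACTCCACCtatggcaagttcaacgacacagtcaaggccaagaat
The Gapdh probe of this pair gave 0.40 and the LOC677637 probe 0.43. Runs shared with a Gapdh probe differed among the probes that stood for the predicted genes named above. The longest was 29 bases for Gm2546 and 24 for Gm8927. It was 10 for Gm9568, 9 for Gm5210, 8 for Gm8825 and 6 for Gm5652. These runs compare probes with probes, not with the whole transcript. How far each GAPDH-like probe takes up Gapdh transcript was not tested.

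**Figure D3:**
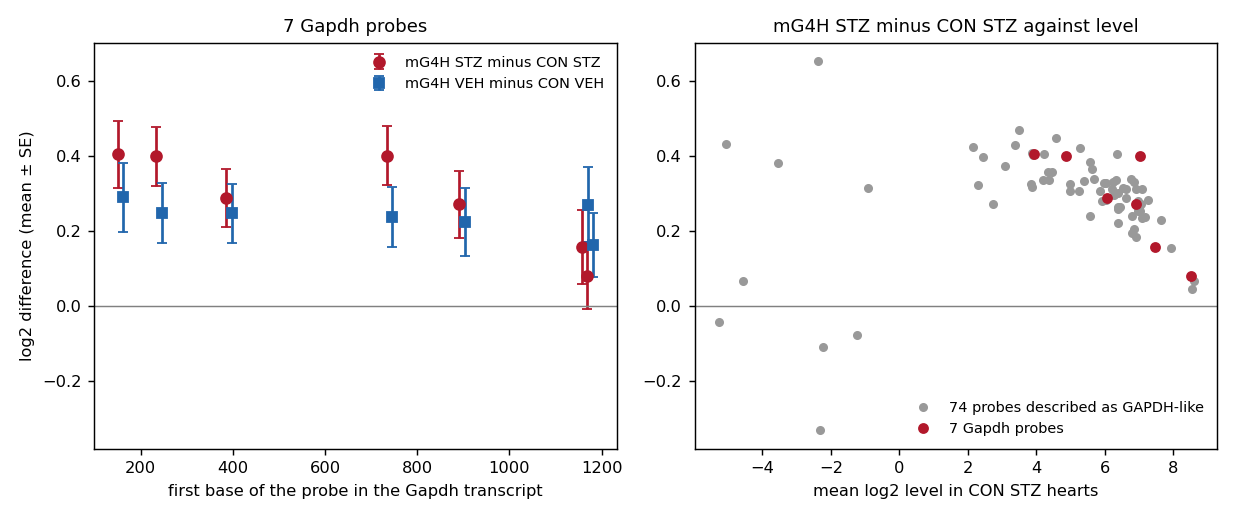
Left, log2 difference (mean ± SE) of the 7 Gapdh probes against their first base in the transcript, in STZ hearts (circles) and VEH hearts (squares). Right, the difference in STZ hearts of these 7 and of 74 probes described as GAPDH-like or uracil-DNA-glycosylase-like, against their mean level in CON STZ hearts. The STZ values of the Gapdh probes run from 0.40 at base 156 to 0.08 at base 1175.

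The lists of metabolic and stress genes fixed for this comparison are described by counts, since no member of the 39 lists passed (0 of 787 measured genes by limma), while 29 had an unadjusted p under 0.05 with a positive difference and 29 with a negative one. These compare with 3.02% and 2.1% of all genes. Within glucose transport and glycolysis, 20 of 29 genes were above 0 (median 0.09), and Pfkfb3, which makes the activator of phosphofructokinase, was alone at an unadjusted p under 0.05. It stood at 0.58, 0.87 and 2.05 in mG4H STZ hearts, against 0.32, 0.52 and 0.70 in CON STZ hearts (0.55, SE 0.18, limma adjusted p = 0.596, and 0.33 with array weights). Hexokinase 2 (Hk2) gave 0.13 (SE 0.11) and Slc2a1, the basal transporter GLUT1, 0.09 (SE 0.37). For glycogen the counts were 17 of 22 above 0 (median 0.06), led by Phkg1 (0.42) and Ppp1r3b (0.24), and for the hexosamine, polyol and pentose phosphate branches 7 of 18 (median -0.03), led by Ogt (-0.21) and Gfpt2 (-0.39).

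Targets of the glucose-sensing ChREBP and MondoA factors were mixed: 8 of 12 lay above 0 (median 0.09). Arrdc4, an arrestin-like protein that lowers glucose uptake, stood at 0.88, 1.15 and 3.25 in mG4H STZ hearts, against 0.37, 0.48 and 0.93 in CON STZ hearts. Only the lowest of the mG4H STZ hearts fell within the CON STZ range. The difference was 0.96 (SE 0.27, limma adjusted p = 0.351), and 0.99 in VEH hearts. The highest mG4H STZ heart, replicate 3 at 3.25, stood apart, the next being at 1.61. Without it the difference was 0.61 (limma adjusted p = 0.138), and as the mean of all Arrdc4 probes 0.54. Its paralogue Txnip, added after values were seen, gave -0.04 (SE 0.19), against 0.45 in VEH hearts. Rgs16 gave 0.42 and Pklr -0.39. Fgf21, also in this list and its member of smallest p, gave -1.36 (limma adjusted p = 0.166).

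In fatty acid synthesis, Acaca, the acetyl-CoA carboxylase that makes malonyl-CoA, stood at 1.58, 2.17 and 2.39 in mG4H STZ hearts, against 1.36, 1.44 and 1.96 in CON STZ hearts. The groups overlapped through 1 CON STZ heart at 1.96. The difference was 0.57 (SE 0.14, limma adjusted p = 0.224), and 1.03 in VEH hearts, where it passed (limma adjusted p = 0.00144). Fasn, the fatty acid synthase, gave 0.40 (SE 0.11, limma adjusted p = 0.346, and 0.23 with normexp), with mG4H STZ hearts from -2.75 to -2.32 and CON STZ hearts from -3.11 to -2.88, which do not overlap. Mid1ip1, an activator of acetyl-CoA carboxylase, gave 0.55 and Scd4 -0.79. Over the list, 10 of 18 were above 0 (median 0.02).

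For PPAR alpha targets outside beta-oxidation, 22 of 24 genes were below 0 (median -0.15), whereas the list's median in VEH hearts was 0.16. Its mean level was 3.04 to 4.02 in mG4H STZ hearts and 3.66 to 4.16 in CON STZ hearts, and its median difference was -0.08, -0.37 and -0.14 within slides 1, 2 and 3. In fits added after the data were seen, which left out 1 STZ heart each, it ran from -0.29 (without mG4H STZ 3) to -0.04 (without CON STZ 3). With an unadjusted p under 0.05 and a negative difference were 6 genes, among them Fgf21 (-1.36), Angptl4 (-0.89), Acot1 (-0.63), Acot2 (-0.43) and Acot3 (-0.31). Angptl4, an inhibitor of lipoprotein lipase, stood at 4.97, 5.75 and 6.68 in mG4H STZ hearts, against 6.36, 6.63 and 6.99 in CON STZ hearts (limma adjusted p = 0.61). Its median in mG4H STZ hearts lay below all CON STZ hearts, and the ranges overlapped.

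Pdk4, added after values were seen, stood at 7.04, 7.84 and 8.76 in mG4H STZ hearts and at 8.01, 8.15 and 8.76 in CON STZ hearts. Its difference was -0.41 (SE 0.22, limma adjusted p = 0.997), against 0.74 in VEH hearts. These effects differed by -1.15, which did not pass the threshold after adjustment over all genes. The STZ difference was -0.06 with blood glucose as a covariate, and 0.15 and -0.95 within slides 1 and 2. Any fit with that covariate uses the spread of glucose within groups. Among STZ mice this spread lay in mG4H (500 to 601) and hardly in CON (600 to 601). The part of glucose in the difference was thus not tested. Over the enzymes of fatty acid oxidation, 21 of 26 lay below 0, but by little (median -0.06, from -0.23 to 0.13). Cpt1b, the carnitine palmitoyltransferase of heart mitochondria, gave -0.06 (SE 0.13).

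Mitochondrial lists lay slightly on the other side. In pyruvate oxidation 12 of 14 genes were above 0 (median 0.12), with Pdhb (0.30, SE 0.10, and 0.20 with blood glucose as a covariate), a subunit of pyruvate dehydrogenase, and Pdp1 (0.31, SE 0.11), the phosphatase that activates it, at an unadjusted p under 0.05. In the TCA cycle 16 of 20 were above 0 (median 0.06, Idh3a 0.30 and Dlst 0.18), in complex I 30 of 37 (median 0.04), in complexes II to V 29 of 43 (median 0.03) and in the mitochondrial ribosome 61 of 72 (median 0.06, Mrpl42 0.24 and Mrpl9 0.28). For biogenesis and dynamics of mitochondria it was 22 of 28 (median 0.08). These medians stand beside 0.015 for all genes and a median SE of 0.16 for a single gene. The counts for the complexes moved in the fits that left out 1 STZ heart. Complex I had 36 of 37 above 0 (median 0.08) without CON STZ 3 and 19 of 37 (median 0.0007) without CON STZ 5. Complexes II to V had 35 of 43 (median 0.06) and 19 of 43 (median -0.009) in the same 2 fits.

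Within the integrated stress response, in which ATF4 turns on genes of amino acid and one-carbon metabolism, 18 of 25 genes lay below 0 (median -0.16). The 7 with an unadjusted p under 0.05 were all negative: Fgf21, Mthfd2, Gdf15 (-1.14), Asns (-0.68), Phgdh (-0.41), Nupr1 (-0.39) and Atf5 (-0.28), the last 5 named after their values were seen. Mthfd2, the mitochondrial folate enzyme, stood at -2.07, -1.83 and -0.54 in mG4H STZ hearts, against -1.44, -0.33 and 0.31 in CON STZ hearts (-1.21, SE 0.27, limma adjusted p = 0.166). All but 1 of the mG4H STZ hearts lay below all CON STZ hearts. The list's median was -0.08, -0.55 and -0.01 within slides 1, 2 and 3, and it ran from -0.27 (without mG4H STZ 3) to -0.08 (without mG4H STZ 1) when 1 STZ heart was left out. Atf4 itself gave 0.08 (SE 0.20).

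Fgf21, a secreted hormone of starvation and mitochondrial stress, sits in the lists of the integrated stress response, of PPAR alpha targets and of ChREBP and MondoA targets. Its levels were -5.21, -3.80 and -3.24 in mG4H STZ hearts, against -3.69, -2.67 and -2.24 in CON STZ hearts. The groups overlapped through 1 CON STZ heart at -3.69. The difference was -1.36 (SE 0.30, limma adjusted p = 0.166) and -0.51 with normexp, against 0.95 in VEH hearts. The difference between these effects was -2.31 (SE 0.43, limma adjusted p = 0.253).

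In the list of contractile and calcium-handling genes and genes of the fetal heart, 16 of 31 lay below 0 (median -0.003). With an unadjusted p under 0.05 were 5, all negative: Nppb, Ankrd1 (-0.34), Myh7 (-0.65), Rcan1 (-0.27) and Xirp2 (-0.26). Nppb, which encodes B-type natriuretic peptide, stood at 5.76, 6.44 and 7.69 in mG4H STZ hearts, against 6.58, 7.02 and 7.88 in CON STZ hearts (-0.66, SE 0.17, limma adjusted p = 0.243), with overlap. Myh7, the slow myosin heavy chain and named after its value was seen, gave -0.83 in VEH hearts.

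**Figure D4:**
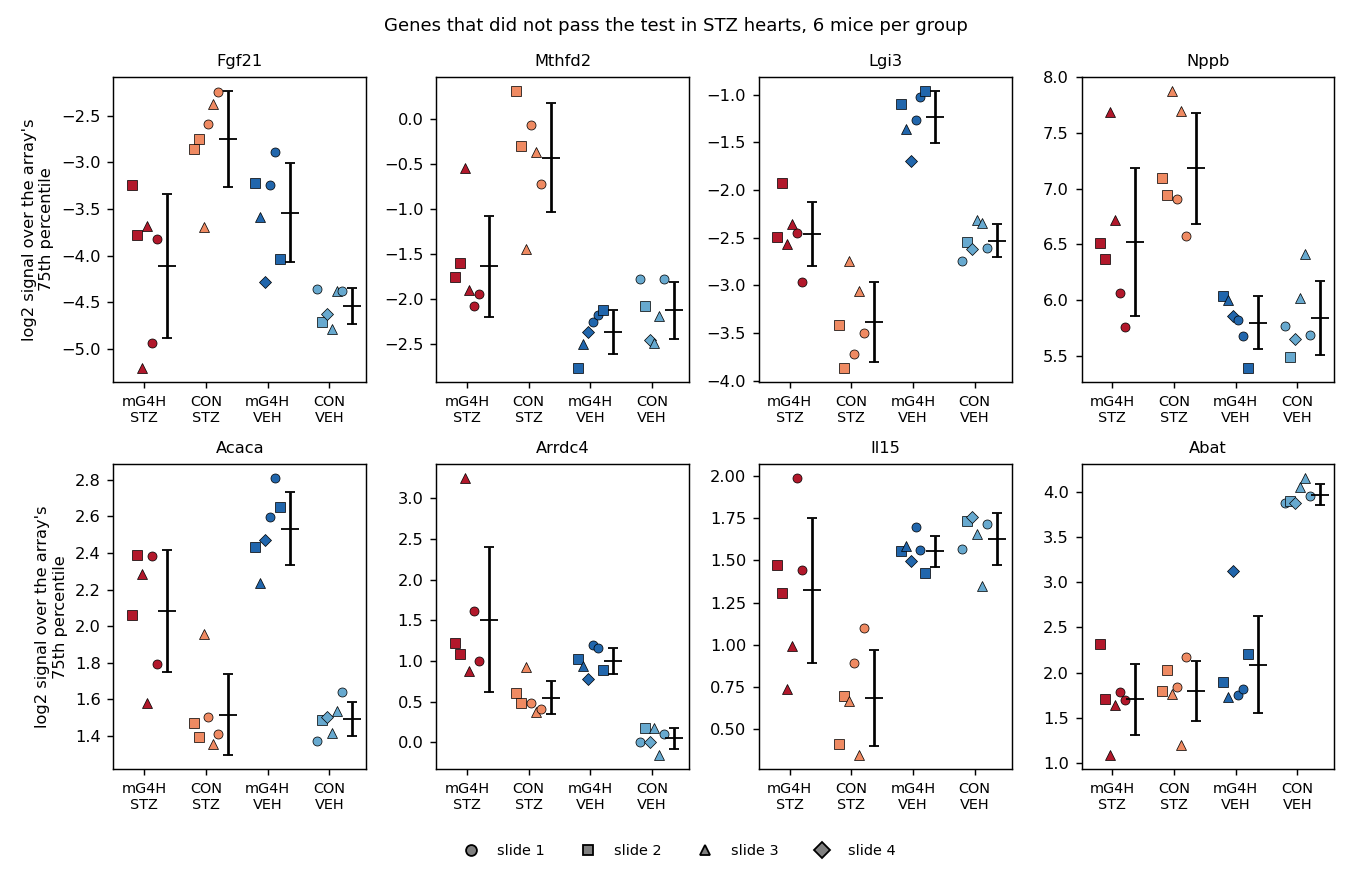
Log2 signal over the array's 75th percentile for 8 genes that did not pass the test in STZ hearts, with 1 point per mouse, marker shape for slide, and a bar for the mean and SD of 6 mice. Fgf21 differs by -1.36 between mG4H STZ and CON STZ hearts and by 0.95 between the VEH groups, and Abat is highest in CON VEH hearts.

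The extracellular matrix list had 34 of 37 genes below 0 (median -0.29), with Col1a2 (-0.46) and Col5a2 (-0.59) at an unadjusted p under 0.05. Col3a1 gave -0.76 (SE 0.45). Fibroblast markers lay on the same side, with 12 of 12 below 0 (median -0.26, Pi16 -0.44), as did macrophage markers with 11 of 12 (median -0.22, Itgam -0.26). None of these markers was below background on all 12 arrays. The mean level of the fibroblast list was 3.85 to 4.34 in mG4H STZ hearts and 3.81 to 4.78 in CON STZ hearts, and that of the macrophage list -0.38 to 0.74 and -0.31 to 1.09. The matrix median was -0.35 and -0.69 within slides 1 and 2 but 0.18 within slide 3, the fibroblast median -0.32, -0.61 and 0.12, and the macrophage median -0.30, -0.74 and 0.36. On slide 3, Col1a2, a chain of type I collagen, was at 5.46 and 5.36 in mG4H STZ hearts, against 4.50 in CON STZ 3 and 5.90 in CON STZ 5. CON STZ 3 stood apart from the other CON STZ hearts, which lay between 5.63 and 6.14, and the lowest mG4H STZ heart was replicate 5 at 4.45 on another slide. Without CON STZ 3, the medians were -0.47 for the matrix (33 of 37 below 0), -0.37 for fibroblast markers (12 of 12) and -0.36 for macrophage markers (11 of 12). Col1a2 was then -0.70 (limma adjusted p = 0.184). Without mG4H STZ 5, the medians were -0.21, -0.23 and -0.11, Col1a2 was -0.31 and Col5a2 -0.38. The part of cell numbers in the matrix values was not tested.

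Other cell types gave medians nearer 0. The median was 0.009 for cardiomyocyte markers (8 of 14 above 0), 0.02 for endothelial markers (8 of 12) and -0.03 for smooth muscle and pericyte markers (4 of 10). For atrial markers it was 0.004 (4 of 8), with Kcnj3, a potassium channel subunit, at 0.55 (SE 0.13, limma adjusted p = 0.224) and Stard10 at 0.24. Adipocyte markers gave -0.08 (4 of 10), Schwann cell and nerve markers -0.02 (3 of 8), mesothelial markers -0.05 (3 of 8, with -0.09, -1.63 and 1.78 within slides), neutrophil markers 0.17 (5 of 7), lymphocyte markers 0.04 (7 of 11) and skeletal muscle markers 0.15 (4 of 6). Of erythroid markers 5 were measured. Their mean level ran from 0.80 to 6.34 in mG4H STZ hearts and from 2.88 to 4.23 in CON STZ hearts, the wider range being that of mG4H STZ hearts.

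Remaining lists are summarised by their counts above 0. The clock list had 15 of 20 (median 0.18), led by Hlf (0.31, SE 0.08, limma adjusted p = 0.229), and gave 0.33, -0.13 and 0.28 within slides and 0.07 without mG4H STZ 3. Insulin signalling, FoxO and atrogenes had 23 of 29 (median 0.09), led by Foxo3 (0.77, SE 0.20, limma adjusted p = 0.275) and Gadd45a (0.44). Its median was 0.47, -0.13 and 0.02 within slides, and -0.02 without mG4H STZ 5. Foxo3, a FoxO transcription factor, was well above background in 6 of 6 mG4H STZ and 4 of 6 CON STZ hearts and gave 0.27 with normexp (limma adjusted p = 0.728). Antioxidant enzymes had 17 of 30 (median 0.03), with Gpx7 at -0.34 and Prdx6 at 0.18. Sterol synthesis had 12 of 26 (median -0.01, Pmvk 0.15), and ketone and branched-chain amino acid catabolism 11 of 27 (median -0.02). Endoplasmic reticulum chaperones had 7 of 20 (median -0.02, Pdia6 -0.20) and heat shock proteins 1 of 18 (median -0.06). Immediate early genes had 13 of 27 (median -0.003), interferon-stimulated genes 6 of 26 (median -0.12) and cell division genes 3 of 23 (median -0.16, with slide 2 at 0.16, -0.001 without mG4H STZ 1 and -0.46 without mG4H STZ 2).

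**Figure D5:**
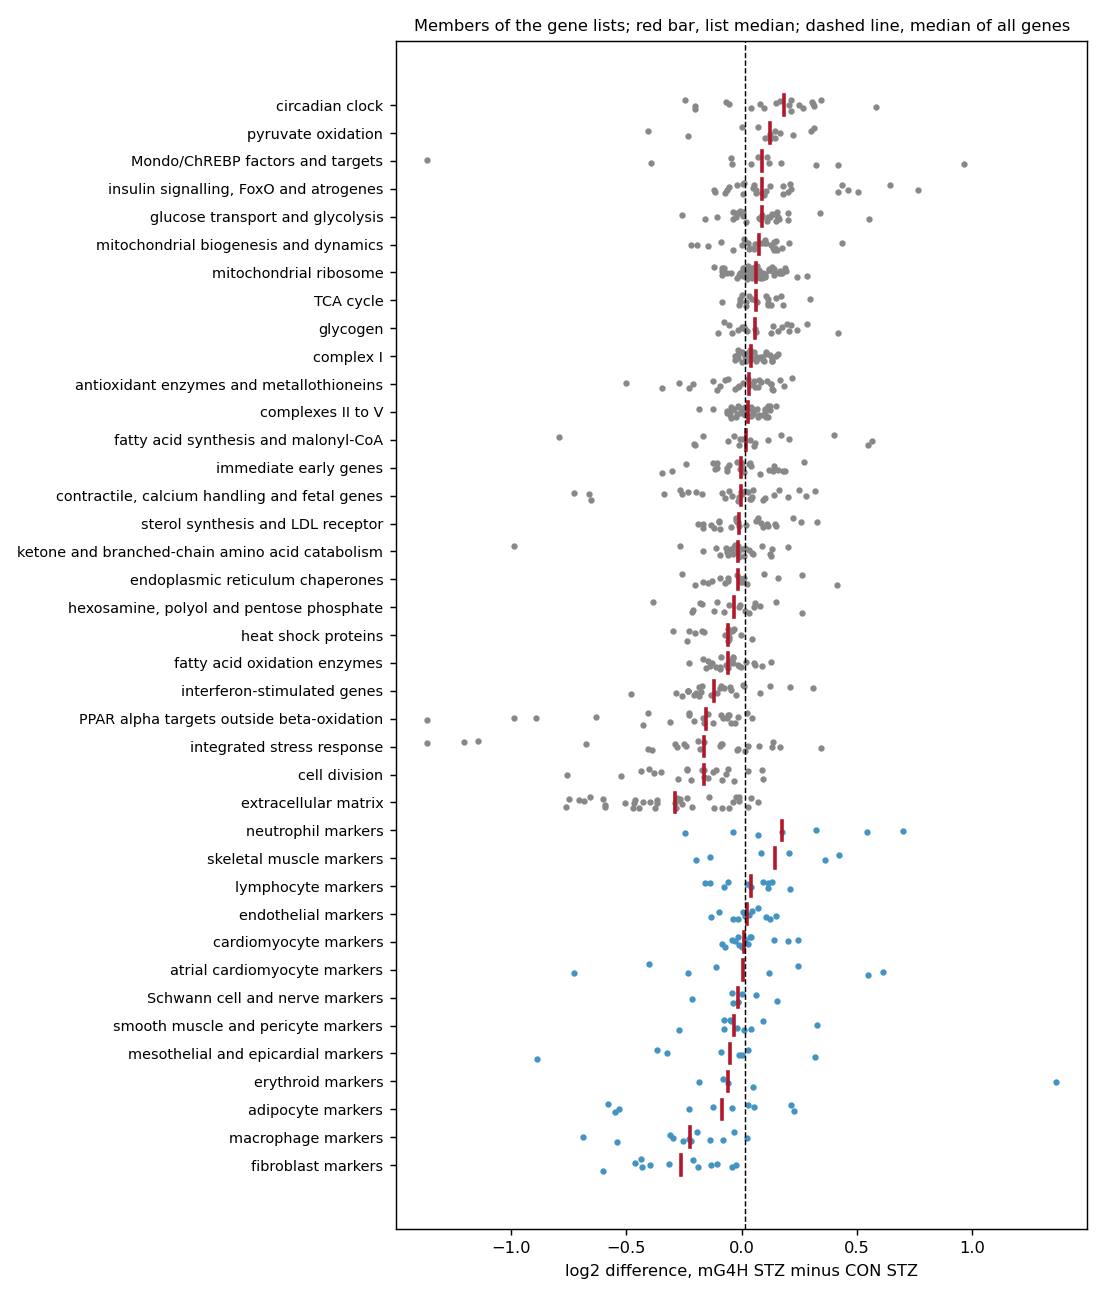
Log2 difference, mG4H STZ minus CON STZ, of each measured member of the 39 gene lists (grey, pathways; blue, cell type markers), with the list median as a red bar and the median of all genes as a dashed line. List medians run from -0.29 for the extracellular matrix to 0.18 for the circadian clock, and no single member passed the test.

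Whether the transgene effect itself depended on diabetes was tested as the STZ difference minus the VEH difference. A single gene passed (0.00354% of genes), and 783 (2.77%) had an unadjusted p under 0.05. It was Abat, the GABA transaminase, with a difference of effects of 1.84 (SE 0.27, limma adjusted p = 0.0431). Abat stood at 1.09, 1.70 and 2.31 in mG4H STZ hearts and at 1.20, 1.82 and 2.18 in CON STZ hearts, which overlapped (-0.09, SE 0.19). Among VEH hearts it ran from 1.73 to 3.12 in mG4H and from 3.87 to 4.15 in CON (-1.93, limma adjusted p = 5.74e-05). CON VEH hearts thus stood apart from all other groups. No gene passed this test in 9 of the 12 fits that left out 1 STZ heart.

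Next by p, none passing, were Grin2c, an NMDA receptor subunit (1.67, limma adjusted p = 0.146), Fgf21, Acot4 (-0.79) and Cdh16 (0.68). Cib3 and Upb1, looked up after their VEH values were seen, were like Abat in part: -0.75 and -0.86 in STZ hearts (-0.40 and -0.52 with normexp), against -2.19 and -2.07 in VEH hearts, where both passed (limma adjusted p = 0.000169 and 0.000422). The last genes of smallest p on the lower side in STZ hearts were Nrn1l (-0.84, -0.79 in VEH hearts), Gspt2 (-0.57), Gm9210 (-0.51), Eno2 (-0.46), Kcnk6 (-0.33) and Rasa3 (-0.26), each with a limma adjusted p of 0.196 to 0.238. Kcnk6, a potassium channel subunit, ran from 0.49 to 0.81 in mG4H STZ hearts and from 0.86 to 1.04 in CON STZ hearts, without overlap. Eno2, the neuronal enolase, ran from -1.53 to -0.45 in mG4H STZ hearts and from -1.07 to -0.27 in CON STZ hearts.

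Body measures come from the labels, which give no units. Blood glucose was 500, 558.5 and 601 (lowest, median, highest) in mG4H STZ mice, against 600, 601 and 601 in CON STZ mice. The value 601 occurred in 3 of 6 mG4H STZ and 5 of 6 CON STZ mice. Whether it is the meter's upper limit is not stated. Mean glucose was 554 ± 51.9 in mG4H STZ mice and 601 ± 0.408 in CON STZ mice (SD, n = 6 each), a difference of -47.0 (exact permutation test, two-sided, p = 0.182, adjusted over 2 measures 0.364). VEH mice ranged from 117 to 164. Body weight was 24.7 ± 2.35 in mG4H STZ mice and 25.6 ± 2.30 in CON STZ mice (SD, n = 6 each), a difference of -0.9 (exact permutation test, two-sided, p = 0.517, adjusted 0.517).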

How the data were processed

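Left ventricle RNA was amplified to Cy3 cRNA for 1-colour Agilent arrays, per the labels' protocols. Feature Extraction and limma are named in the submitters' processing notes, without versions. Per the file headers, Feature Extraction 10.5.1.1 made the deposited files, and the probes are placed on mm9 (NCBI37). The deposited value used is each spot's processed signal, an intensity after background subtraction, on a linear scale and not scaled between arrays. The mean signal and local background, also a deposited intensity, served the normexp alternative. No deposited log2 values were used: log2 was taken here of the deposited intensity, minus log2 of the 75th percentile over gene spots of that array. Outlier spots were left out and spots averaged per probe. Of 55681 probes, 39766 were well above background on 6 or more of 24 arrays, by the software's mark. The brightest probe stood for each of 28235 gene names. No spot was saturated and no pair of arrays was identical.

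All 24 arrays were fitted with limma 3.58.1 in R 4.3.3 (lmFit, eBayes), with 4 group means and slide as a fixed block, so that the groups share 1 estimate of the spread. Tests were two-sided, with Benjamini-Hochberg adjustment over all genes and a threshold of 0.05. The script was tested on simulated data. Body measures were compared by an exact permutation test (scipy 1.17.1), whose smallest possible p is 0.00216. The samples are separate mice, and precision is limited by the number of arrays.

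Named genes were Slc2a4, the passing genes with a symbol, the genes with a symbol of smallest p up to 12 per direction, the 5 of smallest p for the difference of effects, and 2 members of smallest p in each list without a passing member. Some named genes are not reported here. Others are marked in the text as chosen after their values were seen. The members and the lists were chosen with earlier results of these data known. Of 27016 probes' RefSeq accessions 26403 were found in the RefSeq table (GRCm38.p6). It was used for names only. No genome was used. Probe sequences are those of the array files.

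Same-numbered mG4H STZ and CON STZ mice were not treated as pairs. The correlations of their deviations from the group means ran from -0.600 to 0.664, and 3 of 6 numbers correlated best with their own. Slide was not removed from these deviations, so they cannot show whether the mice were pairs. Alternatives changed the scaling (quantile, median), the background (normexp, offset 50), the filter, outlier spots, the choice of probe, the slide term, the arrays fitted, the replicate block, array weights, the prior, covariates (body weight, blood glucose) and the threshold, and left out each STZ heart in turn. All STZ arrays share 1 scan day, and sibling pairs could not be used as a term.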

Additional observations from a re-analysis of the deposited data

Results flagged for a closer look

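The effect of the transgene on Abat differed between STZ and VEH hearts by 1.84 on the log2 scale (limma adjusted p = 0.0431 for the difference itself), with CON VEH hearts above the other 3 groups. Outliers were looked for in each STZ group of 6 for the named genes and body measures, by Dixon's test at the 95% level. Of 212 groups 22 had one, and chance alone gives about 1 in 20. Among mG4H STZ hearts, single hearts stood high for Arrdc4 (3.25, nearest other 1.61), Slc4a1 (0.97, nearest -2.03), Mthfd2 (-0.54), Atp5d (6.45), Cidea (6.59), Dlst (6.34) and Prdx6 (6.84). Others stood low for Hbb-b1 (2.21, nearest 6.69), Myh2 (-6.10), Ndufa8 (5.97), Pi16 (4.33) and Txnip (4.98). Among CON STZ hearts, single hearts stood high for Acaca (1.96), AI132487 (-1.12) and Upb1 (-0.66), and low for Slc4a1 (-6.78, nearest -3.08), Col5a2 (-2.14), Col1a2 (4.50), Cib3 (-3.52), Oasl2 (-1.70) and Calr (3.37). In blood glucose 1 CON STZ mouse had 600 where the other 5 had 601.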

How the results depend on the processing

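Ttc25 passed in all 30 alternatives run on it. The count of genes past the threshold in STZ hearts (4) became 1 with only the 12 STZ arrays (Ttc25). It was 8 with slide as a random block, 10 with array weights and 11 with a trended robust prior. At an adjusted p under 0.1 it was 8, and with normexp background 31. Of these 31, 18 were described as GAPDH-like or as uracil-DNA-glycosylase-like. The count ran from 4 to 18 when 1 STZ heart was left out. ENSMUST00000054384 no longer passed under median scaling, without the slide block, with only the 12 STZ arrays, with the replicate block and no slide, or with blood glucose as a covariate. The chromosome 6 probe did not pass as the mean of all probes of its region (0.46), with only the 12 STZ arrays or with the replicate block and no slide, nor LOC640020 with only the 12 STZ arrays. With the replicate number as a block the count was 5 with slide and 2 without it, and the difference of effects had 0 genes under both replicate blocks. The count for that difference (1) was also 0 under median scaling, with probes above background on 1 or more arrays, with no filter, with each probe on its own, without the slide block, with blood glucose as a covariate and at an adjusted p under 0.01. It was 2 with normexp, 3 with array weights and 0 to 2 when 1 STZ heart was left out. Each of these counts of 0 is by limma, where 783 genes had an unadjusted p under 0.05 in the fit reported above. The VEH count (30) was 16 under median scaling, 16 with body weight as a covariate, 13 with a fold of at least 2, 15 at an adjusted p under 0.01, 248 with array weights, and 27 to 44 when 1 STZ heart was left out. Slc2a4 stayed positive and short of the threshold, from 0.10 to 0.32 when 1 heart was left out, glucose from -56.4 to -36.2 and weight from -1.66 to -0.18. Over 103 named genes and 3088 tested alternatives, 3023 kept their direction and side of the threshold. Another 44 newly passed, 9 no longer passed and 12 turned direction. Only 4 genes passed in the reported fit, so for most named genes staying short of the threshold was likely beforehand and says little about stability. Of 309 values within single slides, 39 moved beyond the spread between replicates. The turned values were, with array weights, Abat 0.021, Eng 0.011, Hbb-b1 0.48, Kcnj8 0.013, S100b 0.059 and Txnip 0.030, and with blood glucose as a covariate Txnip 0.14. With 1 heart left out they were Txnip 0.025 (without CON STZ 3) and 0.10 (without mG4H STZ 2), Abat 0.0077 and Hbb-b1 0.64 (both without mG4H STZ 3), and Krt8 -0.20 (without mG4H STZ 4). Over all fits with 1 heart left out, these 4 genes ranged from -0.61 to 0.64 (Hbb-b1), -0.20 to 0.75 (Krt8), -0.081 to 0.10 (Txnip) and -0.20 to 0.0077 (Abat), and none passed the test. For these shifts the cause was not tested. Dim probes limit the values of Ttc25, LOC640020 and Fgf21, whose levels lie far below the arrays' 75th percentile.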
